A study of Ovis aries with 9 samples.

Results

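The proteasome genes of the sheep hypothalamus were described here across 9 libraries. They were defined by name: every gene whose RefSeq sheep symbol is PSMA, PSMB, PSMC, PSMD, PSME, PSMF or PSMG followed by a number. The rule found 48 genes of the 21284 genes in the table, with 81 RefSeq mRNA transcripts, and 30 of the 48 had 1 transcript. The symbols PSMC3IP and PSME3IP1 start alike but belong to interacting proteins and were not members. The libraries came from hypothalamus of Dolang sheep ewes, 3 animals each at prepuberty (a median of 120 days of age), puberty (130 days) and postpuberty (150 days). Puberty was judged from oestrous behaviour and the state of the vulva, so each stage is a state seen from outside the animal. No group received a treatment. All groups shared the breed, the sex and the keeping, and each library was 1 animal, named below by stage and replicate number.

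The proteasome is the protease that degrades proteins tagged with ubiquitin. Its core is a barrel of outer alpha rings and inner beta rings, and PSMB5, PSMB6 and PSMB7 carry the cutting sites. A cap with a ring of ATPases, a base and a lid recognises, unfolds and feeds substrates, assembly chaperones put core and cap together, and other activators or an inhibitor can take the place of the cap. In cells exposed to interferon, PSMB8, PSMB9 and PSMB10 replace the 3 constitutive cutting subunits, and the resulting immunoproteasome makes peptides for display on class I molecules. Neurons depend on the constitutive proteasome for protein turnover at synapses, whereas in the healthy brain the immunoproteasome is mostly found in microglia and other immune cells.

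The values were FPKM, a level scaled to the length of a transcript and to the mapped fragments of the library, summed over the transcripts of a gene. Puberty 2 stood apart before any gene was considered. Its FPKM summed to 599726, against 359588 to 398109 in the other libraries, and 42441 transcripts were above 0 in it, against 67824 to 71787. The tests between stages were therefore run with all 9 libraries and without Puberty 2, and ranges over "8 libraries" leave it out. Of the 15 hypothalamus markers, 7 stayed under 1 FPKM in every library and GNRH1, which encodes the hormone that drives puberty, was listed at 0 in all 9 (named after its values were seen). The summed level of 13 neuron markers was 1528 to 2346 in 6 of the 8 libraries, 856 in Prepuberty 1, 611 in Postpuberty 1 and 608 in Puberty 2. In such bulk tissue, fewer cells of a type and less RNA per cell cannot be told apart.

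The level of the constitutive proteasome varied little between the 8 libraries other than Puberty 2. The sums of core and cap each had a range of 1.30-fold and 1.36-fold. The summed FPKM of all 48 genes was 1404 to 1848 in 8 libraries, a 1.32-fold range. That sum also holds chaperones, activators, the inhibitor and the immunoproteasome subunits, which alone summed to 34.8 to 183.3. The alpha ring and PSMB1 to PSMB7, which form the constitutive core, summed to 590.4, 643 and 531 in Prepuberty 1 to 3, 593 and 622 in Puberty 1 and 3, and 524, 631 and 680.3 in Postpuberty 1 to 3. The 3 stages overlapped in this sum. The cap subunits (ATPases, base and lid) summed to 611, 829 and 682 at prepuberty, 766 and 716 in Puberty 1 and 3, and 617, 823 and 756 at postpuberty. The lowest cap sums were those of Prepuberty 1 and Postpuberty 1, which also had the lowest neuron marker sums of the 8 libraries. The part of the neuron content in the cap level was not tested. The ratio of cap to core sums was lowest in Prepuberty 1 at 1.04 and highest in Postpuberty 2 at 1.31.

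Among core subunits, each present in a fixed number per particle, mRNA levels were far from equal. In the alpha ring without PSMA8, which was nearly absent, mean FPKM over 8 libraries ran from 11.1 for PSMA2 to 62.5 for PSMA7, 5.63-fold. PSMA7 was at 59.5, 66.4 and 55.1 at prepuberty, 60.6 and 68.1 in Puberty 1 and 3, and 59.2, 62.6 and 68.4 at postpuberty. Levels of non-catalytic beta subunits ran from 34.7 for PSMB2 to 88.1 for PSMB4, the highest mean of any member. PSMB4 was at 84.2, 93.4 and 76.0 at prepuberty, 86.8 and 98.7 in Puberty 1 and 3, and 79.7, 89.2 and 97.2 at postpuberty. The 3 constitutive catalytic subunits lay close together, with means of 50.7 for PSMB5, 55.1 for PSMB6 and 66.0 for PSMB7. Per subunit, the alpha ring without PSMA8 stood at 0.496 to 0.583 times the constitutive beta ring in the 8 libraries.

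Levels in the cap ran from 15.2 for PSMD12, a lid subunit, to 79.5 for PSMD4, a base subunit that binds ubiquitin. PSMD4 was at 74.98, 88.5 and 78.4 at prepuberty, 85.8 and 72.8 in Puberty 1 and 3, and 63.9, 87.4 and 84.5 at postpuberty. PSMD12 was at 14.0, 18.0 and 12.6 at prepuberty, 16.03 and 15.4 in Puberty 1 and 3, and 14.1, 15.7 and 15.8 at postpuberty. The 6 ATPases ranged in mean from 19.1 for PSMC6 to 74.6 for PSMC1, 3.92-fold. Among base subunits other than ATPases, the scaffold PSMD1 had the lowest mean, 40.6, and among lid subunits PSMD8 had the highest, 55.6. The smallest variation of all members belonged to PSMD7, a lid subunit, which stayed between 38.5 and 45.9 in the 8 libraries.

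The helper proteins were mostly at lower levels than the subunits of core and cap. The cap chaperones PSMD10, PSMD5 and PSMD9 had means of 6.79, 9.77 and 11.5 FPKM. Among core chaperones, PSMG2 had the lowest mean at 9.55, PSMG1 was at 15.9, PSMG3 at 21.8 and PSMG4 at 46.3. The alternative activators ranged from 4.87 for PSME4, a nuclear activator, to 23.5 for PSME2, and the inhibitor PSMF1 had a mean of 30.7. PSMF1 was highest in Postpuberty 3, at 42.4, and lay between 26.6 and 32.8 in the other 7 of the 8 libraries.

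**Figure D1:**
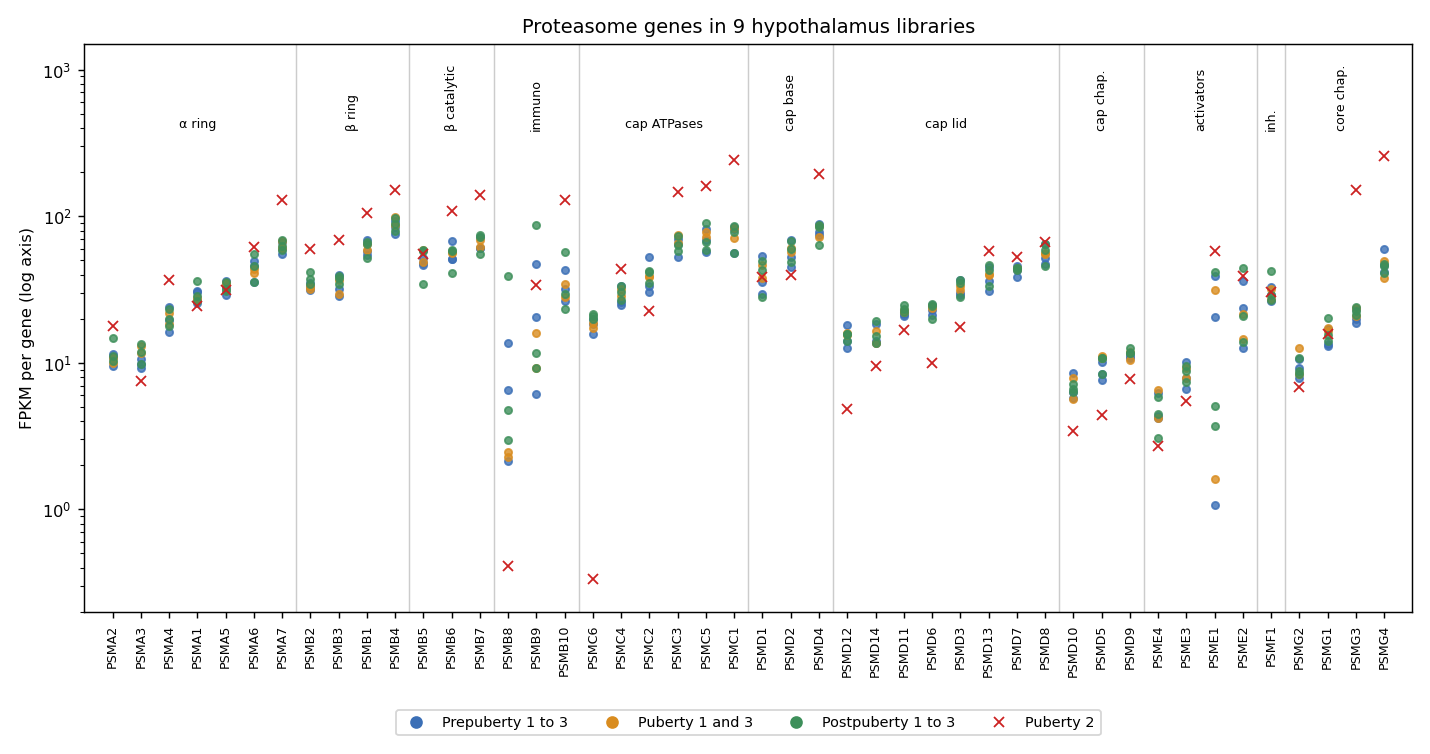
FPKM per gene on a log axis for the 46 proteasome genes that passed the filter on low values, grouped by role (chap., assembly chaperones; inh., inhibitor). Circles are the 8 libraries other than Puberty 2, coloured by stage, and crosses are Puberty 2. Circles of most core and cap genes nearly coincide, while those of PSMB8, PSMB9 and PSME1 spread widely.

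The remaining members were absent or nearly so. PSMA8, the alpha subunit of the testis, reached at most 0.216 FPKM, in Prepuberty 1. PSMB11, the beta subunit of thymic epithelium, reached at most 0.0651, in Postpuberty 1. Neither had a mean of 0.5 FPKM in any stage, so 46 of the 48 genes passed the filter on low values, as did 14238 genes in all.

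Variation between animals was small for most members. The coefficient of variation (the SD as a percentage of the mean) over 8 libraries had a median of 13.9% over the 46 members and 11.6% over the 31 core and cap subunits. Its median was 25.8% over all 14238 genes and 18.8% over the 7002 genes with a mean of at least 5 FPKM. It was under 20% for 39 of 46 members (84.8%), against 37.7% of all genes and 53.9% of those with a mean of at least 5. The 7 members above 20% were PSMB8 (138%), PSMB9 (108%), PSME1 (96.5%), PSME2 (48.3%), PSMB10 (31.7%), PSME4 (24.9%) and PSMD1 (23.1%). All 3 immunoproteasome subunits and both members of the activator that interferon induces, PSME1 and PSME2, were therefore among the most variable. These 8 libraries mix stages, so this variation includes any difference between stages.

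PSMB8, the immunoproteasome counterpart of PSMB5, varied most. Its FPKM was 13.6, 2.13 and 6.53 in Prepuberty 1 to 3, 2.28, 0.412 and 2.47 in Puberty 1 to 3, and 2.98, 4.76 and 39.4 in Postpuberty 1 to 3. Postpuberty 3 and Prepuberty 1 were the 2 highest, and they belong to different stages. PSMB9, the counterpart of PSMB6, was at 47.5, 6.13 and 20.5 at prepuberty, 9.21, 34.2 and 15.9 at puberty, and 11.7, 9.29 and 87.2 at postpuberty. PSMB10, the counterpart of PSMB7, was at 42.9, 26.6 and 31.7 at prepuberty, 28.2, 129.6 and 34.6 at puberty, and 23.2, 29.6 and 56.7 at postpuberty. In the 8 libraries Postpuberty 3 and Prepuberty 1 again ranked first and second for both genes. In Puberty 2 the 3 immunoproteasome genes went apart, with PSMB8 at its lowest and PSMB10 at its highest.

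The counterparts they replace did not share this pattern. PSMB5 was at 47.9, 52.2 and 46.3 at prepuberty, 48.6, 55.4 and 58.8 at puberty, and 34.6, 59.3 and 57.9 at postpuberty. PSMB6 was at 51.4, 67.6 and 51.2 at prepuberty, 57.2, 107.9 and 56.3 at puberty, and 40.9, 58.6 and 58.0 at postpuberty. PSMB7 was at 61.2, 72.2 and 60.9 at prepuberty, 68.8, 140.5 and 62.2 at puberty, and 55.2, 74.4 and 72.8 at postpuberty. Prepuberty 1 was not among the highest 3 libraries for any of them.

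Set against its counterpart, each immunoproteasome subunit therefore had a share that depended on the animal. The ratio of PSMB8 to PSMB5 was 0.284 in Prepuberty 1 and 0.681 in Postpuberty 3, and 0.0409 to 0.141 in the other 6 of the 8 libraries. The ratio of PSMB9 to PSMB6 was 0.923 and 1.503 in these 2 libraries and 0.0908 to 0.400 in the other 6. In Postpuberty 3 the inducible subunit thus had the higher level of the pair. The ratio of PSMB10 to PSMB7 was 0.7003 and 0.779 in these 2 libraries and 0.368 to 0.557 in the other 6. Over the 8 libraries the 3 ratios spanned 16.7-fold, 16.6-fold and 2.12-fold. In Puberty 2 they were 0.00744, the lowest of the 9 libraries, 0.317, and 0.923, the highest of the 9. Stage means of the PSMB8 ratio were 0.155 ± 0.122 at prepuberty, 0.0321 ± 0.0215 at puberty and 0.282 ± 0.345 at postpuberty (SD, n = 3 each, Puberty 2 included), so at postpuberty the SD exceeded the mean.

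**Figure D2:**
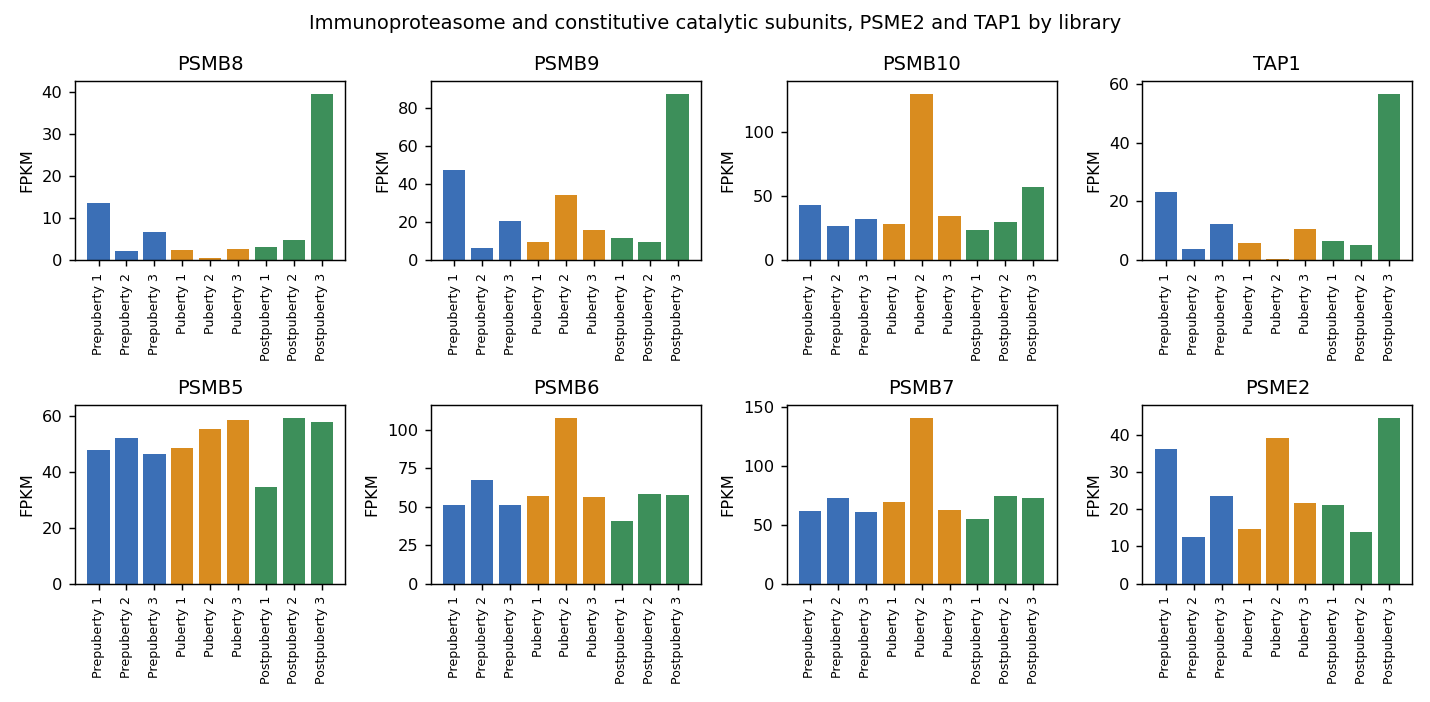
FPKM in each library of the immunoproteasome subunits PSMB8, PSMB9 and PSMB10, the constitutive subunits PSMB5, PSMB6 and PSMB7, the activator subunit PSME2 and the peptide transporter subunit TAP1. Bars are single libraries coloured by stage, each panel has its own axis from 0, and Prepuberty 1 and Postpuberty 3 are the tallest of the 8 bars other than Puberty 2 for PSMB8, PSMB9, PSMB10, TAP1 and PSME2.

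PSME2, which with PSME1 forms the activator that interferon induces, followed the same libraries. Its FPKM was 36.1, 12.6 and 23.6 at prepuberty, 14.6, 39.1 and 21.7 at puberty, and 21.0, 13.8 and 44.5 at postpuberty. Prepuberty 1 and Postpuberty 3 were the 2 highest of the 8 libraries for 8 of the 46 members (PSMA2, PSMA6, PSMB3, PSMB8, PSMB9, PSMB10, PSME2 and PSMF1), 17.4% of them, against 10.4% of all genes. Over genes with a mean of at least 0.5 FPKM in the other 6 libraries, so that the pair did not decide which genes entered, the members again gave 8 of 46, against 9.62%, and the marker counts that follow are over such genes. The pair of libraries was chosen after the values were seen, so the counts are a description. The same pair was highest for 13 of 13 interferon-response and class I antigen-processing genes, for 10 of 13 microglia markers and for 4 of 5 lymphocyte markers. It was highest for 0 of 13 neuron, 0 of 8 oligodendrocyte and 0 of 7 astrocyte markers. Summed over all 14 microglia markers, the level was 632 in Prepuberty 1, 665 in Postpuberty 3, 135 to 294 in the other 6 libraries and 370.4 in Puberty 2. C1QB, C1QC and TYROBP gave most of the sum in Postpuberty 3, at 160.5, 152.1 and 108.5. P2RY12, TMEM119 and CSF1R did not have this pair as their highest. In Postpuberty 3 they were at 6.85, 12.9 and 46.1, where the 8 libraries ran from 5.60 to 21.3, 8.76 to 24.5 and 21.3 to 93.1. In Puberty 2 the microglia markers went both ways. AIF1, at 56.7, was above every other library, while CX3CR1, P2RY13, PTPRC, ITGAM and CD68 were below every one. The other microglia markers lay within the range of the 8 libraries there. Lymphocyte markers (10 in the table) summed to 33.9 and 75.6 in this pair, 3.93 to 22.6 in the other 6 and 41.9 in Puberty 2. CD8B alone gave 39.7 of the sum in Puberty 2, where no other lymphocyte marker exceeded 0.765. It also gave 19.6 of the 22.6 in Postpuberty 2. The part of these cells in the immunoproteasome level was not tested.

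On chromosome 20 of the assembly ARS-UI_Ramb_v3.0, 2 of the immunoproteasome genes are interleaved with the subunits of the transporter that carries peptides to class I molecules. In order they are TAP2 (chr20:7312223-7320889), PSMB8 (chr20:7324795-7328871), TAP1 (chr20:7329386-7338199) and PSMB9 (chr20:7338703-7345197). TAP1, named here for its position between them, was at 23.15, 3.81 and 12.2 at prepuberty, 5.68, 0.396 and 10.55 at puberty, and 6.48, 5.10 and 56.45 at postpuberty. Its order of libraries placed Postpuberty 3 and Prepuberty 1 first and second and Puberty 2 last, as for PSMB8. TAP2 was at 30.4, 20.9 and 19.2 at prepuberty, 14.3, 7.51 and 18.0 at puberty, and 13.8, 17.0 and 52.2 at postpuberty. In Puberty 2, PSMB9 at 34.2 stood above its 8-library median of 13.8 while its neighbours PSMB8, TAP1 and TAP2 were at their lowest. In Postpuberty 3 the PSMB8 transcript XM_042236724.2 was at 12.9 FPKM, beside 26.6 for NM_001131030.1, and it was listed at 0 in the other 8 libraries.

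PSME1, the partner of PSME2 in the activator, varied in another way. Its single transcript was at 1.07, 39.4 and 20.7 in Prepuberty 1 to 3, 31.5, 57.7 and 1.62 in Puberty 1 to 3, and 41.8, 3.72 and 5.11 in Postpuberty 1 to 3. Low values occurred in every stage. In the 4 libraries where PSME1 was lowest (Prepuberty 1, Puberty 3, Postpuberty 2 and Postpuberty 3), PSME2 was at 36.1, 21.7, 13.8 and 44.5, and the 13.8 of Postpuberty 2 was its second lowest value. The ratio of PSME1 to PSME2 ran from 0.0297 in Prepuberty 1 to 3.12 in Prepuberty 2, 105-fold.

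A search for a transcript with the reverse pattern was made after these values were seen. Over 115108 transcripts, it asked for at least 15 FPKM in each of the 4 libraries where PSME1 was lowest and, in the other 4 of the 8 libraries, for a level below the smallest of these divided by 2, and found 1. This was the only transcript of LOC101118736 (chr7:83164525-83165828), a separate gene on the same chromosome as PSME1 (chr7:20829008-20831681). It was at 25.7, 0 and 0 at prepuberty, 0, 34.5 and 27.1 at puberty, and 0, 23.0 and 17.9 at postpuberty. The 4 libraries with PSME1 under 6 FPKM thus all had LOC101118736 at 17.9 or more, and Puberty 2 had both. The sum of both genes was 26.8, 39.4 and 20.7 at prepuberty, 31.5, 92.2 and 28.7 at puberty, and 41.8, 26.7 and 23.1 at postpuberty. In 8 libraries this sum stayed between 20.7 and 41.8, where PSME1 alone had run from 1.07 to 41.8. The transcript was chosen for being high where PSME1 was low, so a steadier sum follows from the choice and is a description only. Whether the genes share sequence, so that reads could be assigned to either, was not tested. The annotated end of EMC9 (chr7:20826572-20829009) also touches the start of PSME1.

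The comparison of stages asked whether proteasome genes moved with puberty. No core, cap, chaperone, activator or immunoproteasome gene passed the test. In limma on log2(FPKM + 1), with p-values adjusted over all genes by the Benjamini-Hochberg method and an absolute difference of at least 1, 0 of 46 members were called between prepuberty and puberty, and 0.0% of the 14238 genes were. The counts were 0 of 46 and 0.0% between puberty and postpuberty, and 0 of 46 and 0.0% between prepuberty and postpuberty. At an unadjusted p below 0.05 limma gave 0 of 46 members in each of these comparisons. The background of all genes at that level was 1.82%, 2.14% and 0.815%. Without Puberty 2 the members again gave 0 in each comparison by both rules, where 1.66%, 2.11% and 1.87% of 14209 genes had an unadjusted p below 0.05 and 0.0% were called.

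Differences of the members were small in size. Between prepuberty and puberty, 39 of 46 differed by less than 0.5 on the log2 scale (84.8%, against 73.9% of all genes), and the median was -0.14, a negative value meaning higher at puberty. The median over all genes was 0.14. After scaling to equal totals these medians were 0.07 and 0.30, so that the direction for the members turned. Between puberty and postpuberty 39 of 46 again stayed within 0.5 (71.7% of all genes), with a median of 0.06 against -0.19, which became -0.17 against -0.38 at equal totals and so turned as well. Between prepuberty and postpuberty 46 of 46 stayed within 0.5 (93.2% of all genes), with a median of -0.06 against -0.05. Without Puberty 2 the member medians were -0.05, 0.00 and -0.06, beside -0.02, -0.03 and -0.05 for all genes. The medians of core and cap were -0.28 and -0.09, 0.15 and 0.05, and -0.06 and -0.06 with all 9 libraries, in the same order of comparisons. Without Puberty 2 they were -0.02 and -0.07, 0.00 and 0.01, and -0.06 and -0.06.

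**Figure D3:**
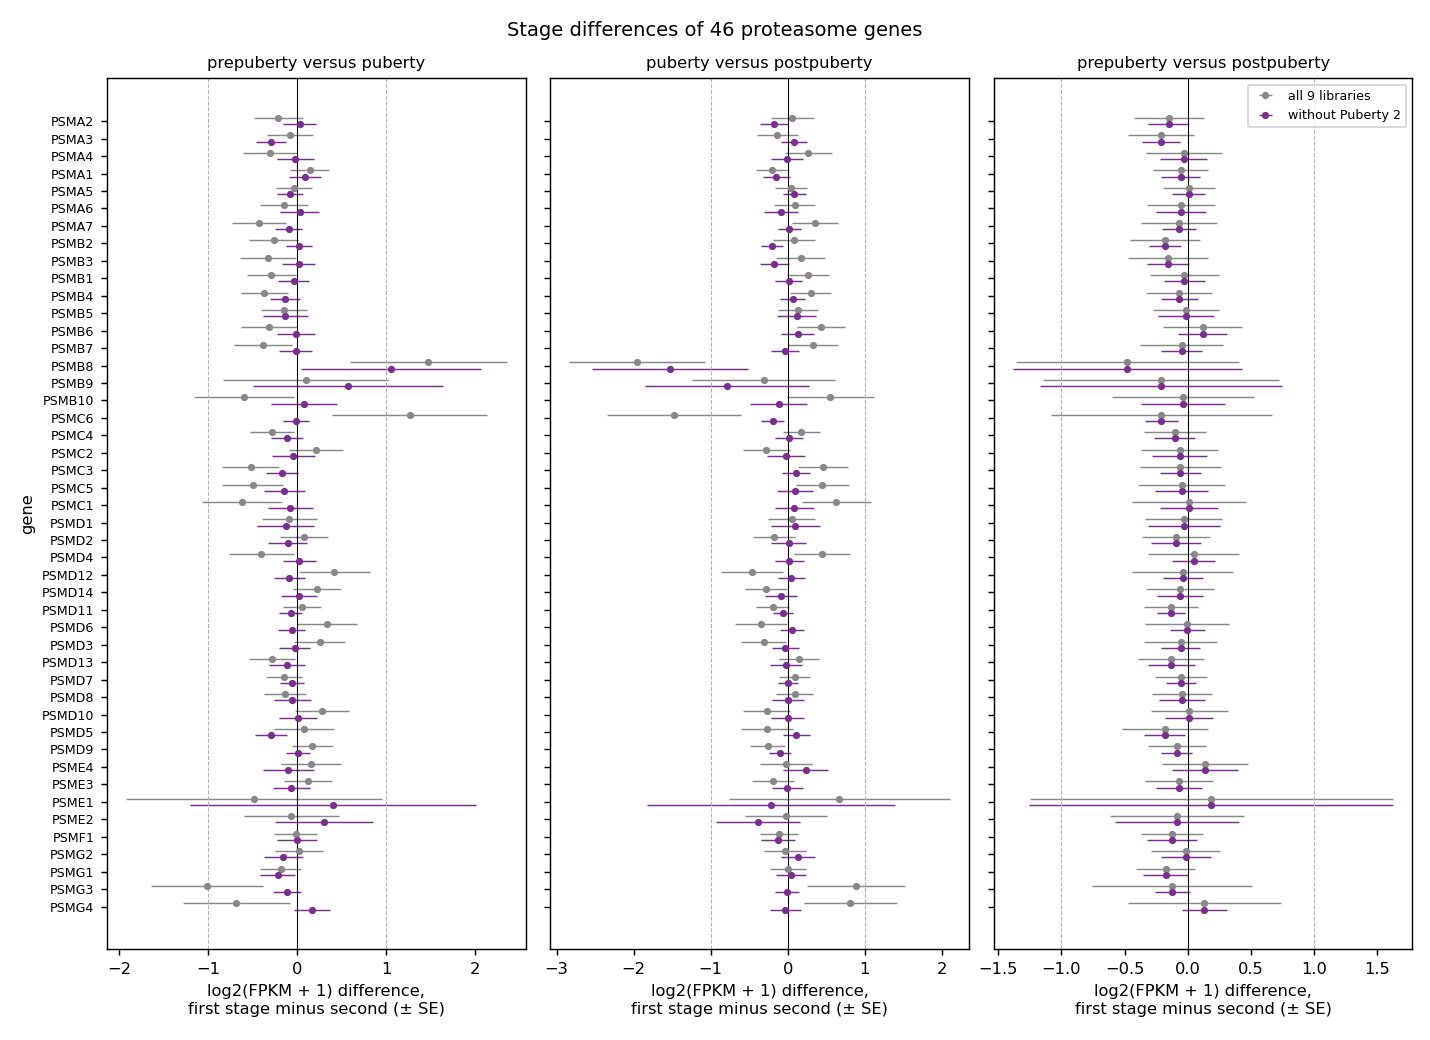
Differences between stages on log2(FPKM + 1) for 46 proteasome genes, with standard errors from limma, for all 9 libraries (grey) and without Puberty 2 (purple). Positive values mean a higher level in the stage named first, dashed lines mark an absolute difference of 1, and the widest intervals belong to PSME1, PSMB9, PSMB8 and, with Puberty 2, PSMC6.

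With all 9 libraries PSMB8 had the smallest p-value of the members in both comparisons with puberty. Between puberty and postpuberty its mean FPKM was 1.72 ± 1.14 and 15.7 ± 20.5 (SD, n = 3 each), a log2 difference of -1.95 (SE 0.88, limma adjusted p = 0.7804). The libraries of the 2 stages did not overlap, the highest puberty value being 2.47 and the lowest postpuberty value 2.98. Without Puberty 2 the log2 difference was -1.53 (SE 1.013, limma adjusted p = 1.0), and without Postpuberty 3 it was -0.93 (SE 0.67, limma adjusted p = 0.882). Between prepuberty and puberty PSMB8 differed by 1.47 (SE 0.88, limma adjusted p = 0.838), and the stages overlapped. This was 0.94 without Prepuberty 1, the lowest of the values with 1 library left out, and 2.05 without Prepuberty 2, the highest. Between prepuberty and postpuberty PSMB8 differed by -0.48 (SE 0.88, limma adjusted p = 1.0). The sign of this difference rested on single libraries, as it was 0.55 without Postpuberty 3, 0.10 without Prepuberty 2 and -1.12 without Postpuberty 1. PSMB9 and PSMB10 gave smaller differences between puberty and postpuberty, -0.31 (SE 0.93) and 0.56 (SE 0.56), with limma adjusted p-values of 0.897 and 0.7804. Without Puberty 2 they were -0.78 (SE 1.07) and -0.12 (SE 0.37), so that the sign for PSMB10 turned.

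In the 2 comparisons with puberty, the next smallest p-values with all 9 libraries came from genes that stood far off in Puberty 2. PSMC6, a cap ATPase, was at 18.8, 0.333 and 17.3 at puberty and 19.9, 21.0 and 21.6 at postpuberty, a log2 difference of -1.48 (SE 0.87, limma adjusted p = 0.7804). Without Puberty 2 this became -0.20 (SE 0.15, limma adjusted p = 1.0). PSMC3, also a cap ATPase, was at 52.6, 70.3 and 65.1 at prepuberty and 74.5, 145.8 and 66.1 at puberty, a log2 difference of -0.52 (SE 0.32, limma adjusted p = 0.838) that became -0.17 (SE 0.18) without Puberty 2. PSMG3, a core chaperone, differed by -1.013 between these stages (SE 0.63, limma adjusted p = 0.838) and by -0.11 (SE 0.15) without Puberty 2.

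Without Puberty 2 PSMB8 again had the smallest p-value between puberty and postpuberty, and the other small p-values came from genes that differed by 0.30 or less on the log2 scale. PSMA3, of the alpha ring, was at 9.16, 10.6 and 9.84 at prepuberty and 11.6 and 12.95 in Puberty 1 and 3, a log2 difference of -0.29 (SE 0.17). PSMD5, a cap chaperone, was at 8.34, 10.2 and 7.67 at prepuberty and 11.1 and 10.7 in Puberty 1 and 3, a log2 difference of -0.30 (SE 0.18). PSMG1, a core chaperone, was at 13.02, 16.9 and 13.5 at prepuberty and 17.4 and 16.4 in Puberty 1 and 3, a log2 difference of -0.22 (SE 0.20). PSMB2, a beta subunit, was at 31.9 and 33.3 in Puberty 1 and 3 and 34.3, 37.3 and 41.7 at postpuberty, a log2 difference of -0.20 (SE 0.14). PSMC6 was at 15.8, 19.8 and 18.3 at prepuberty, and its difference from postpuberty was -0.21 (SE 0.13). For each of these the limma adjusted p was 1.0.

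Counts of members whose stages did not overlap were read against the share of all genes, given first in either direction and then for a higher later stage. With 9 libraries they were 0 of 46 between prepuberty and puberty (5.16% and 2.32%), 2 between puberty and postpuberty (PSMB8 and PSMC6, 7.32% and 5.25%) and 2 between prepuberty and postpuberty (PSMC6 and PSMD11, 4.57% and 3.17%). Without Puberty 2 they were 3 (PSMA3, PSMD11 and PSMD5, 11.7% and 7.16%), 3 (PSMB2, PSMB8 and PSMC6, 14.1% and 7.9%) and 2 (PSMC6 and PSMD11, 4.53% and 3.16%). In each of these members the later stage was higher. For a single gene with 3 animals per stage, the smallest two-sided p that exact permutation allows is 0.1.

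Genes with other symbols that act with the proteasome also gave no call. Of a list of 26 such genes (other chaperones, ubiquitin receptors, among them the cap subunit ADRM1, deubiquitinases, ubiquitin and regulators), 25 were in the table and passed the filter, and limma called 0 of 25 in either direction in each comparison, with and without Puberty 2. Of all genes, 0.0% were called in each of these fits. At an unadjusted p below 0.05, 0.815% to 2.14% of all genes passed over the fits. The share was 1.66% for prepuberty against puberty without Puberty 2. In the list the count was 0 of 25 in every fit except that one, where it was 1. This was DDI2, the protease that activates NFE2L1, at 1.72, 1.52 and 0.933 at prepuberty and 3.10 and 2.39 in Puberty 1 and 3 (limma adjusted p = 1.0). NFE2L1, the transcription factor that drives proteasome genes when degradation falls short, was at 51.4, 11.03 and 43.5 at prepuberty, 43.6, 3.05 and 56.5 at puberty, and 48.1, 57.3 and 50.2 at postpuberty. It was lowest in Puberty 2 and Prepuberty 2, where the proteasome genes summed to 2864 and 1718. In Postpuberty 3 and Postpuberty 2, with NFE2L1 at 50.2 and 57.3, they summed to 1848 and 1677. A relation was not tested. POMP, the chaperone that matures the core, stayed between 53.0 and 71.7 in the 8 libraries.

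As a ratio of highest to lowest in the 8 libraries, the shares of the roles varied most for the immunoproteasome and the alternative activators. Over 8 libraries the alpha ring held 12.3% to 14.0% of the summed FPKM of the 48 genes, non-catalytic beta subunits 13.03% to 14.3% and constitutive catalytic subunits 9.30% to 11.5%. The ATPases held 15.8% to 20.7%, the rest of the base 9.83% to 12.3% and the lid 14.4% to 16.1%. The immunoproteasome subunits held 6.85% in Prepuberty 1, 9.92% in Postpuberty 3 and 2.03% to 3.99% in the other 6 libraries. The alternative activators, PSME1 among them, held 1.80% to 5.41%, and the inhibitor 1.68% to 2.30%. Core chaperones held 5.03% to 6.82% and cap chaperones 1.62% to 2.07%. In Puberty 2, core chaperones held 15.03% and the ATPases 21.4%, above their ranges in the 8 libraries. The lid held 8.25%, the alpha ring 10.8%, the rest of the base 9.49%, the inhibitor 1.06% and cap chaperones 0.542% there, below theirs. The immunoproteasome subunits held 5.73%, and the shares of this role, the activators and the other beta subunits lay within their ranges.

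**Figure D4:**
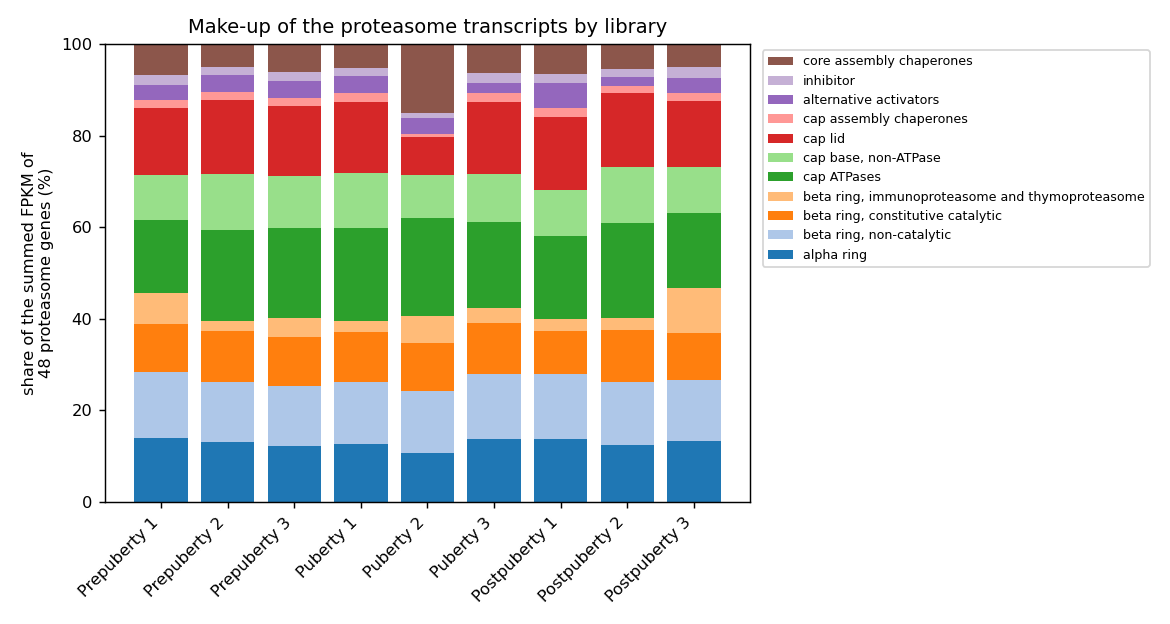
Share of the summed FPKM of 48 proteasome genes held by each role, in percent, in each library. The immunoproteasome band is widest in Prepuberty 1 and Postpuberty 3, and Puberty 2 has the widest core chaperone band and the narrowest lid band.

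Puberty 2 had the proteasome out of proportion. Subunits that occur in equal numbers in 1 particle ranged there from 0.333 FPKM for PSMC6 to 242 FPKM for PSMC1, both members of the 6-part ATPase ring, whose 8-library means were 19.1 and 74.6. Compared with the median of the other 8 libraries on log2(FPKM + 1), 11 of 46 members were at least 1 higher (23.9%, background 11.6%) and 5 were at least 1 lower (10.9%, background 28.6%). Puberty 2 lay above all other libraries for 22 of 46 members (47.8%, background 20.2%) and below all of them for 17 (37.0%, background 51.9%). The median member was 0.26 higher, where the median gene was 0.48 lower. The direction for the members turned with the scaling: the median member was 0.39 lower after scaling to equal totals (1.10 lower for all genes) and 0.09 higher after quantile normalization (0.07 higher for all genes). The counts turned too: 4 members were at least 1 higher and 16 at least 1 lower after scaling to equal totals (8.70% and 34.8%, against 6.20% and 53.7% of all genes), and 5 and 1 after quantile normalization (10.9% and 2.17%, against 15.3% and 14.7%). In each scaling the median member lay above the median gene. With 1 library this has no replicate check and no test.

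In FPKM, the members furthest above their medians in Puberty 2 were a pair of core chaperones. PSMG3, a core chaperone, was at 151.1 FPKM against a median of 21.8, a log2 difference of 2.74, after staying between 18.7 and 24.0 in the other 8 libraries. PSMG4, its partner among the core chaperones, was at 257 against 46.4, a difference of 2.44. PSME1 was 2.35 higher, PSMB10 2.04 higher and PSMC1 1.59 higher. The lowest was PSMC6, at 0.333 against 19.3, a difference of -3.93. PSMB8 was at 0.412 against 3.87 (-1.76), PSMD12 at 4.84 against 15.6 (-1.503), PSMD6 of the lid at 9.94 against 24.0 (-1.19) and PSMD5 at 4.41 against 10.5 (-1.08). After quantile normalization PSMG3 remained first (2.13) and PSMC6 last (-3.27), but PSME1 (1.998) came before PSMG4 (1.59). PSMB8 was then at -0.96, PSMD12 at -0.93 and PSMD6 at -0.91, and PSMD5, at -0.43, was no longer among the 5 lowest members.

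By role, the 7 constitutive beta subunits were all above their medians in Puberty 2 in FPKM, by 0.13 for PSMB5 to 1.09 for PSMB7. After scaling to equal totals 6 of them were above, and PSMB5 was at -0.55. All 3 cap chaperones were below every other library. In the lid, PSMD12, PSMD6, PSMD3, PSMD14 and PSMD11 were below every other library and PSMD13, PSMD7 and PSMD8 above every one in FPKM, but after scaling to equal totals the lid genes were all below their medians, from -0.12 for PSMD13 to -2.20 for PSMD12. Of the ATPases, PSMC6 and PSMC2 were below every other library and PSMC1, PSMC3, PSMC4 and PSMC5 above. After scaling to equal totals PSMC1 (0.96), PSMC3 (0.51) and PSMC5 (0.54) remained above their medians, PSMC2 (-1.42) and PSMC6 (-5.09) below, and PSMC4 was at -0.09.

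These differences ordered by the length of the gene on the genome. The 15 members with the shortest span (1686 to 7305 bp) had a median difference of 1.06, the 15 in the middle -0.02 and the 16 longest (16632 to 102603 bp) -0.45. All genes with spans from the shortest to the longest member of each group had medians of 0.21, -0.21 and -0.66. The members were therefore above the median gene within each span, and the medians decreased with length in both. PSMB8, in the shortest group, went against the order, as did PSMB7, PSMB2 (0.81), PSMB1 (0.76) and PSMA6 (0.45) in the longest.

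**Figure D5:**
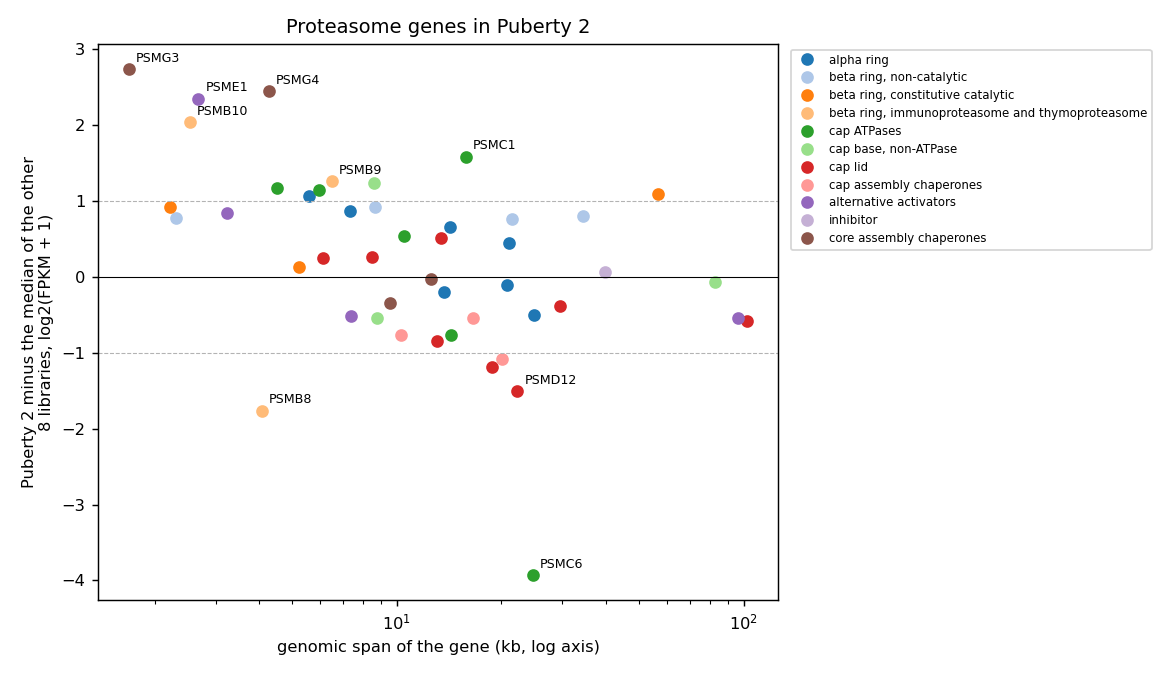
Difference of Puberty 2 from the median of the other 8 libraries on log2(FPKM + 1) for 46 proteasome genes, against the genomic span of the gene in kb (log axis), coloured by role. Dashed lines mark differences of 1 and -1. Most short genes lie above 0 and most long genes below it, with PSMC6 far below all others at -3.93.

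The transcript that carried a gene also changed in Puberty 2. Of 17 members with several transcripts that passed the filter, 5 (PSMA3, PSMC6, PSMD14, PSMD6 and PSME4) had another leading transcript in Puberty 2 than in the mean of the other libraries. The count made likewise was 0 in each of the other 8 libraries. Over 9514 genes with several transcripts the share was 45.6% in Puberty 2 and 19.3% to 20.7% in the others. PSMD14, the lid subunit that removes ubiquitin, had 9.47 FPKM in Puberty 2, all on XM_060411138.1, which was listed at 0 elsewhere. Its usual transcript XM_004004665.5 was at 12.8 to 18.3 in the other libraries and listed at 0 in Puberty 2. The main PSMC6 transcript, XM_004010220.5, was likewise at 14.7 to 20.9 elsewhere and listed at 0 in Puberty 2. PSME4 changed from XM_015094386.3, at 2.58 to 4.89 elsewhere, to XM_060412198.1, at 2.39. Whether the RNA, the library or the assignment of fragments to transcripts set these values was not tested.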

How the data were processed

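Poly(A) mRNA from hypothalamus of 9 ewes was sequenced by the authors, 1 library per animal, and the labels gave the stage and replicate. They trimmed the reads with Trimmomatic (0.32 in the submitters' processing notes), aligned them with HISAT2 to the sheep assembly ARS-UI_Ramb_v3.0 and used StringTie for merged transcripts. FPKM per transcript is what the deposited table holds, since its values are not whole numbers. Read counts and the corrected values of the authors were not used here. Mapped reads per library ranged from 19347227 (Puberty 2) to 23966519 (Prepuberty 3).

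Gene symbols, transcript assignments and positions came from the RefSeq annotation of the same assembly, which matched 76682 of 76684 NM_ and XM_ transcripts. FPKM was summed per gene over these transcripts. Genes with a mean of at least 0.5 FPKM in 1 or more stages were kept. Stages were compared with limma 3.58.1 in R 4.3.3 on log2(FPKM + 1), with all 9 libraries in 1 fit, a trend of variance with level, and Benjamini-Hochberg adjustment over all kept genes. A call needed an adjusted p below 0.05 and an absolute log2 difference of at least 1. FPKM differences on this scale understate the change of low genes. Without Puberty 2, the fit was repeated on 8 libraries. Replicate numbers are not pairs of animals, and libraries were treated as independent. Tables were handled in Python 3.11.15 with pandas 2.3.3.

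Members and lists were chosen with earlier results of these data known. Values in every library are given for PSMB5 to PSMB10, PSME1 and PSME2, and for members that were extreme in level within a role, smallest in p in a comparison, or extreme in Puberty 2; some of these are given by range or by their mean over 8 libraries. Other genes are named by position, by smallest p in their list, or where they carried or departed from a marker sum. The procedure was tested on simulated data of prepuberty against postpuberty with 200 genes changed by a log2 difference of 2: limma recovered 114 (57.0%) with 6 false calls in 9 libraries, and 161 (80.5%) with 5 in 8 libraries. The changed genes were drawn from those with a higher mean level, and the noise was independent between genes and libraries. These shares therefore do not cover smaller differences, low genes or deviations that a whole library shares. Alternatives covered scaling, pseudocount, filter, value per gene, fold minimum, library weights, variance model, replicate block and leaving out each library. Sequences were not used here.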

Additional observations from a re-analysis of the deposited data

How the results depend on the processing

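No proteasome gene was called in any comparison under any of the 27 settings fitted, and the lowest adjusted p of a named member over all of them was 0.381. Leaving out each library in turn gave 0 to 0 called members and 0 to 0 called genes in every comparison. Over all genes, library weights gave 4 calls between prepuberty and puberty and 1 between puberty and postpuberty. Leaving out Puberty 2, Prepuberty 1 and Postpuberty 3 together, an alternative chosen after seeing the data, gave 2 calls between prepuberty and puberty and 3 between prepuberty and postpuberty. No such call was a member. The number of members whose stages did not overlap was 3 of 46 between prepuberty and puberty without puberty replicate 2 (6.52%, against 11.7% of all genes; 0 with it), 4 between puberty and postpuberty after scaling to equal totals (8.70%, against 8.10%; 2 without) and 1 between prepuberty and postpuberty after quantile normalization (2.17%, against 4.30%; 2 without). The median member in Puberty 2 was at -0.39 after scaling to equal totals and 0.095 after quantile normalization, against 0.26 in FPKM. Of 2187 log2 differences of the 28 named members that passed the filter under alternatives, 2011 stayed within 1 standard error of the main value and 176 moved further. Part of the 2011 could not move. The fold minimum, the filter and the variance model leave a log2 difference as it is. So does leaving out a library of the stage that a comparison does not use. The count is therefore no measure of how stable the differences are. With PSME1 and LOC101118736 summed (added after seeing the data), the difference between prepuberty and postpuberty was -0.08 in place of 0.19, and the standard error was 0.47 in place of 1.44, a fall that follows from how LOC101118736 was chosen.

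The replicate number as a block gave 0 called members and 0 called genes in each comparison. The numbers did not pair the animals: correlations of deviations were -0.31 to 0.51 over 9 pairs with the same number and -0.56 to 0.31 over 18 pairs with different numbers.

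Limits are the 3 animals per stage, the absence of counts behind the FPKM values, so that counting error is not known, and the differing FPKM total of Puberty 2. The p-values measure the spread between these animals only.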

Other observations

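The animals differed in how many proteasome genes were at their highest or lowest over the 9 libraries. Apart from Puberty 2, Postpuberty 3 was the highest library for 10 of 46 members (21.7%, against 10.5% of all genes) and Prepuberty 2 for 8 (17.4%, against 19.5%). Prepuberty 1, Prepuberty 3 and Postpuberty 1 were the highest for 0 members, against 10.95%, 2.47% and 16.7% of all genes. Prepuberty 3 and Postpuberty 1 were each the lowest library for 9 members (19.6%, against 5.81% and 7.15% of all genes), and Prepuberty 1 for 6 (13.04%, against 6.24%). Postpuberty 2, Postpuberty 3 and Puberty 3 were the lowest for 0, against 6.36%, 2.85% and 2.30% of all genes. These are descriptions of single libraries, with no test.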
